A study of Mus musculus with 6 samples.

Results

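DNA methylation of 9 genes that Wnt signalling switches on was compared between control and DM-aKG treated intestinal organoids of Apc Min mice. The genes were Axin2, Rnf43, Znrf3, Notum, Sp5, Tcf7, Tcf7l2, Myc and Ephb3, chosen by name as Wnt feedback and transcription target genes and not by their methylation. They are 9 of 34614 annotated genes, and 7 of them had a level that could be tested, out of 9197 such genes. For each, the positions from 1000 bases before to 1000 bases after the gene span were taken. Together they held 656 listed cytosine positions of 390208, of which 480 had a value in all 6 libraries.

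The libraries were made by reduced representation bisulfite sequencing, in which CpG-rich restriction fragments are read after bisulfite conversion. It reports the share of reads that stayed unconverted, which is called methylation here. Oxidised forms of methylated cytosine were not measured separately. All 6 libraries were from Apc Min organoids, described as primary cells, in organoid medium and low glutamine medium. The Apc Min allele, a germline mutation of the destruction complex gene Apc, was thus carried by the controls too. There were 3 control libraries and 3 treated with DM-aKG, a cell-permeable dimethyl ester of α-ketoglutarate, and the series describes each set as biological replicates; dose, time and animal of origin are not stated in those sources.

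Wnt ligands stabilise β-catenin, which joins TCF transcription factors on DNA and turns on target genes. Several targets feed back on the pathway, by rebuilding the complex that destroys β-catenin, by removing Wnt receptors from the cell surface or by inactivating the ligand outside the cell. In the intestine the pathway maintains crypt stem cells, and loss of Apc keeps it active without ligand. α-Ketoglutarate is a cosubstrate of the TET enzymes, which oxidise methylated cytosine. Expression was not measured in these libraries.

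The table lists a level only at or above 40%, and a 0 stands either for a lower level or for no call, so a 0 was treated as no value. The levels below are therefore those of methylated positions, and the depth behind each is unknown. Between 83.7% and 88.6% of positions had a value in a library. Over the 272327 positions with a value in all 6 libraries, called complete sites here, the control mean was 87.5% ± 0.731 (SD, n = 3) and the DM-aKG mean 88.6% ± 0.282. No marker gene of another cell type passed the limma threshold (adjusted p of at least 0.764), and 0% of all genes did. At an unadjusted p under 0.05, limma gave 2 of 5 fibroblast marker genes, Vim and Dcn, both higher, against 6.23% of all genes. It gave 0 immune, endothelial or epithelial ones. Groups did not overlap in 2 of the 5, Vim and Pdgfrb, both higher, against 11.3% of all genes. The epithelial marker gene Epcam was lower without overlap, against 2.53% of all genes. A higher mean with DM-aKG was found for 4 of 5 measured fibroblast marker genes and 2 of 2 immune marker genes, with median differences of 4.67 and 3.37 percentage points, where 66.3% of all genes were higher. The median over all genes was 0.733 points. The 1 measured endothelial marker gene, Pecam1, differed by 0.0747 points. Of 3 measured epithelial marker genes 1 was higher and 2 were lower, with a median of -0.537 points. Their part in the results below was not tested.

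The promoter windows found for these genes lay outside what the table lists. RefSeq promoter windows of assembly GRCm38.p6, the assembly of mm10, from 250 bases before to 50 bases after a transcript start, were found for 6 of the 9 genes, 9 windows in all. None of the 9 held a listed position, against 4.34% of 17645 windows on the chromosomes used that held at least 1. The bases before 4 of these starts are shown because they give the CpG content of the stretches with no listed level. They are printed 5′ to 3′ on the gene's strand, which is the plus strand for all 4, with each CpG in capitals. They lie at chr11:108920099-108920348 for Axin2, chr19:55741560-55741809 for the first start of Tcf7l2, chr2:70474673-70474922 for Sp5 and chr11:87662837-87663086 for the first start of Rnf43.
Axin2: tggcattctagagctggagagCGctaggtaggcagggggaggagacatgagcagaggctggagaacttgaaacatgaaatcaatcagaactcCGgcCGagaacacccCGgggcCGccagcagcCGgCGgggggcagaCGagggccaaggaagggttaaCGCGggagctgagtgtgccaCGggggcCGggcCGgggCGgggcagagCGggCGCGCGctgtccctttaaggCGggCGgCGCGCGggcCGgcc
Tcf7l2: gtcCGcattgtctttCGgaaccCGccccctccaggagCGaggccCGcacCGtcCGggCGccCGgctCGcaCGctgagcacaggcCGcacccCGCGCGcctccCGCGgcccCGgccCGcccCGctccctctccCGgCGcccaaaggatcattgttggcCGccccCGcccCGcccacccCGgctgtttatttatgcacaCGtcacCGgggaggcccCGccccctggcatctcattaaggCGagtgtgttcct
Sp5: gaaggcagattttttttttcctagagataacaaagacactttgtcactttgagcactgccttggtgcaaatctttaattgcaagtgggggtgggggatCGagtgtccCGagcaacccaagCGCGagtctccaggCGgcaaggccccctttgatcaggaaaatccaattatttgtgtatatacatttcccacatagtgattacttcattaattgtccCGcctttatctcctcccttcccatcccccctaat
Rnf43: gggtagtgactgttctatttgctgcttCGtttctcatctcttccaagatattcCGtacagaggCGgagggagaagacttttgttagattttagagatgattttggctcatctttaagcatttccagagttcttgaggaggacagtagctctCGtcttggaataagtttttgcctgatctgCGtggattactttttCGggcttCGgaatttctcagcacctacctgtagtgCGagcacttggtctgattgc

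These stretches differ in CpG content: 24 CpGs stand before the Axin2 start and 30 before that of Tcf7l2, against 6 for Sp5 and 8 for Rnf43. Windows with at least 20 CpGs held a listed position in 2.70% of 4845 cases, and those with under 20 in 4.96% of 12800. The listed position nearest to the Axin2 start used here was 1266 bases before it, and the nearest on the other side was 7180 bases after it. The Axin2 span itself begins further upstream, at 108917828, and no promoter window was found there. Listed positions lie at -315, -228 and -210 from that end, and complete sites at 164 and 165. Those at -228 and -210 had values only in DM-aKG replicates 2 and 3. For Tcf7 the nearest listed positions were 1014 bases before the upstream start and 129 bases after the other. The TCF motif CTTTGAT was searched on both strands and was found once in the Sp5 window, with its first base at -104 from the start, and in none of the other 8. It occurs in 3.73% of all 32851 windows. The related CTTTGAA was in none of the 9 and in 5.14% of all windows. Znrf3, Notum and Myc had no entry in the promoter table.

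No gene of the set passed the test. The limma test on gene means, with Benjamini-Hochberg adjustment over 9197 genes, called 0 of the 7 measured members (adjusted p from 0.765 to 0.963), and 0% of all genes. At an unadjusted p under 0.05 it also gave 0 of 7, against 6.23% of all genes. The mean level was lower with DM-aKG in 5 members and higher in 2, with a median difference of -0.362 points. Over all genes tested 66.3% were higher and 33% were lower, with a median of 0.733 points. In the control libraries the order of levels from the top was Tcf7l2, Znrf3, Ephb3, Axin2, Tcf7, Rnf43 and Notum. Neighbours in that order overlapped in their control values except Axin2 and Tcf7, at 90.3% to 93.1% and 86.9% to 89.3%.

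**Figure D1:**
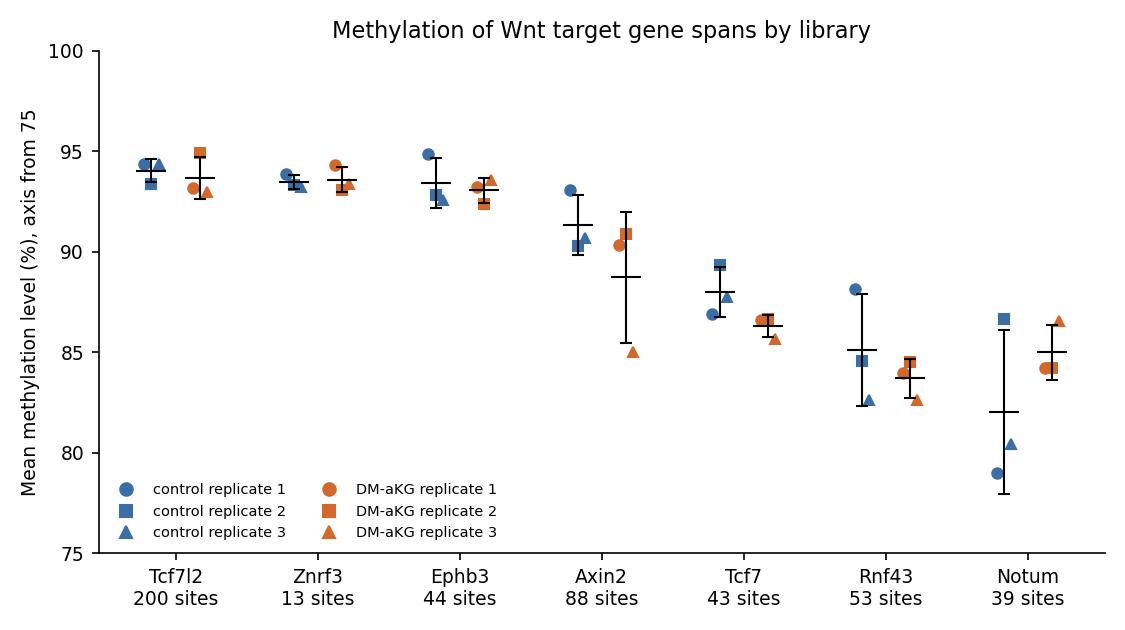
Mean methylation level (%, axis from 75) of the complete sites of each gene in each library, with group mean and SD (n = 3), blue for control and orange for DM-aKG. Tcf7 is the one gene whose groups do not overlap, and the control values of Notum run from 79.0% to 86.6%.

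Single sites gave the same count. None of the 480 complete sites passed limma's test with adjustment over 272327 sites (smallest adjusted p 0.680), and the share of all sites called was 0%. At an unadjusted p under 0.05 there were 12 lower and 7 higher member sites, and 1.89% of all sites were lower and 3.54% higher by that rule. On the log2 odds scale limma called 0.149% of all sites and 0 of the members' sites. In all, 238 member sites had a lower mean with DM-aKG, 188 a higher one and 54 an equal one. The lower share was thus 49.6%, and over all sites 40.3% were lower and 53.3% higher. The groups did not overlap at 16 lower member sites, which is 3.33% against 2.5% of all sites, and at 12 higher ones, which is 2.5% against 4.63%. Sites of 1 gene share reads and neighbours and are not independent. Many lie 1 base apart, as the opposite strands of a CpG do, and averaging adjacent positions left 288. Counts of sites are thus counts of positions and not of separate CpGs.

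**Figure D2:**
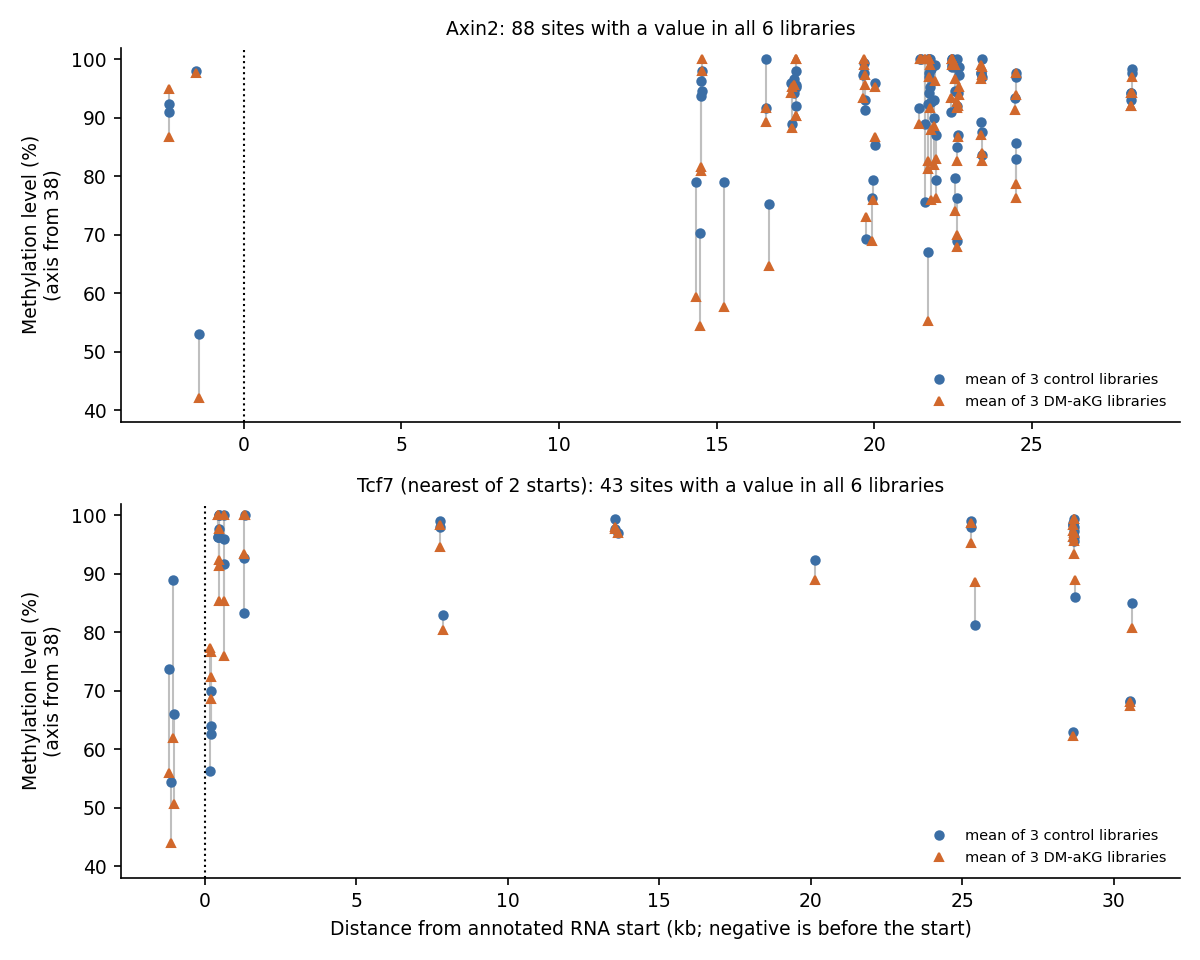
Methylation level (%, axis from 38) of each complete site of Axin2 (top) and Tcf7 (bottom) against its distance from the annotated RNA start (kb), as the mean of 3 control (circles) and of 3 DM-aKG libraries (triangles), joined by a line. In Axin2 the DM-aKG means at 14361 and 15248 bases after the start differ from the controls by -19.7 and -21.3 points, and in Tcf7 the 4 sites before the start are lower while sites just after it go both ways.

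Of the feedback inhibitors, Axin2, a scaffold of the β-catenin destruction complex, had the largest lower difference of the set. Its span lies at chr11:108917828-108950783 on the plus strand and held 124 listed positions and 88 complete sites. The control libraries had mean levels of 93.1%, 90.3% and 90.7%, and the DM-aKG libraries had 90.3%, 90.9% and 85.0%. DM-aKG replicate 3 was the lowest, and the other DM-aKG libraries lay at the lower end of the range of the controls. The group means were 91.3% ± 1.49 and 88.7% ± 3.26 (SD, n = 3), a difference of -2.61 points with a 95% interval of -7.11 to 1.89 (limma, adjusted p = 0.765). Without DM-aKG replicate 3 the difference was -0.737 points. Of its 88 complete sites 54 were lower and 24 higher, and at 7, all of them lower, the groups did not overlap. Over all sites 2.5% were lower and 4.63% higher without overlap.

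The 2 Axin2 sites with the largest lower differences lay within 1000 bases of each other inside the gene. At position 108935597 of chromosome 11, which is 15248 bases after the start, the controls read 86%, 76% and 75% and the DM-aKG libraries 62%, 71% and 40%. At 108934710 the controls read 83%, 79% and 75% against 65%, 70% and 43%. At both positions every DM-aKG library was below every control, with mean differences of -21.3 and -19.7 points, and DM-aKG replicate 3 was the lowest. Another position nearby, 108935623, read 75%, 51% and 48% in the controls and was listed at 0 in all 3 DM-aKG libraries, which is either under 40% or no call. Over all rows 1793 positions had that pattern and 1224 had the opposite one. Further lower sites without overlap lay elsewhere, and the following 2 were picked after their values were seen. At 108942061, which is 21712 bases after the start, all controls read 100% and the DM-aKG libraries 91%, 71% and 82%, a difference of -18.7 points. Position 108918919 lies 1430 bases before the start used here but inside the gene span. Its values were 55%, 55% and 49% in the controls and 41%, 43% and 42% with DM-aKG. The last of these are close to the lowest level the table lists.

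The stretch chr11:108934710-108937015, whose bounds were set after its values were seen, held 23 listed positions and 10 complete sites. Its mean was 87.2%, 88.0% and 88.2% in the controls and 81.5%, 82.7% and 69.1% with DM-aKG. The groups did not overlap, and 8 of 10 sites were lower and 1 was higher. The difference was -10.0 points, and -5.70 without DM-aKG replicate 3. That library had a value at 10 of the 23 positions, while the others had values at 20 to 23, and 6 positions were listed at 0 in it alone. Over the whole Axin2 span it had values at 100 of 124 positions, against 111 to 116 in the others. Exons and introns are not in the annotation used here, so the stretch is described only as inside the gene span.

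Rnf43 and Znrf3, transmembrane ubiquitin ligases that remove Frizzled receptors from the cell surface, showed small differences. Rnf43 lies at chr11:87663087-87735539 and had 71 listed positions and 53 complete sites. Its controls were at 88.1%, 84.6% and 82.6% and its DM-aKG libraries at 84.0%, 84.5% and 82.6%. The ranges overlapped, and the highest value was that of control replicate 1. The difference was -1.42 points (95% interval -5.29 to 2.46; limma, adjusted p = 0.839), and it was 0.0943 without control replicate 1. At position 87719778 the controls read 94%, 91% and 80% and all DM-aKG libraries were listed at 0. Rnf43 had a value at 64 to 69 positions in the controls and at 55 to 63 with DM-aKG. Its span overlaps the lncRNA gene 1110028F11Rik, and 12 of its listed positions lie inside that gene's span or within 1000 bases of it.

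At 87713100 of Rnf43 the controls read 92%, 84% and 90% and the DM-aKG libraries 67%, 79% and 77%. This was the only Rnf43 site whose groups did not overlap. Znrf3, at chr11:5276329-5444847, had only 13 complete sites in a span of 168519 bases. Its controls were at 93.8%, 93.3% and 93.2% and its DM-aKG libraries at 94.3%, 93.1% and 93.4%. The groups overlapped, and the difference of 0.128 points (95% interval -2.08 to 2.33; limma, adjusted p = 0.963) turned to -0.922 when library means were equalised. Its only site without overlap, 5281086, read 98% in all 3 controls and 100% in all 3 DM-aKG libraries.

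Notum, a secreted enzyme that removes the lipid Wnt ligands need for receptor binding, was one of the 2 members with a higher mean. It lies at chr11:120653788-120661193 and had 46 listed positions and 39 complete sites. The controls were at 79.0%, 86.6% and 80.4% and the DM-aKG libraries at 84.2%, 84.2% and 86.6%. Control replicate 2 lay as high as the highest DM-aKG library, and the other controls were below all of them. The difference was 2.98 points (95% interval -2.24 to 8.21; limma, adjusted p = 0.781), with 25 sites higher and 14 lower. It was 1.47 points without control replicate 1 and 5.30 without control replicate 2. Its high sites, those with a mean of 80% or more over the 6 libraries, differed by 3.52 points and the others by 1.61 points. That mean includes the treated libraries, so a site that rose could be classed as high for that reason. Position 120656569, with a control mean of 68.7%, was classed as high. These values therefore cannot tell whether the control level of a site mattered.

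The Notum sites with the widest separation lay close to each other. At 120656569 the controls read 50%, 78% and 78% and the DM-aKG libraries 100%, 79% and 100%. At 120656716 the values were 67%, 79% and 81% against 88%, 94% and 91%. A neighbour went the other way: 120656493 read 80%, 91% and 88% in the controls and 79%, 79% and 75% with DM-aKG. Sites without overlap between groups thus went both ways within the same cluster.

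Sp5, a zinc finger repressor induced by Wnt, and Myc, a transcription factor of growth and proliferation, had no listed position within 1000 bases of their spans at chr2:70474923-70477726 and chr15:61985341-61990361. Around the Sp5 start the nearest listed positions were 2042 bases before and 57990 bases after it. Since only levels of 40% or more are listed, a missing position may be little methylated or not covered, and the table does not tell these apart.

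Tcf7, which encodes the TCF1 transcription factor, was the only member whose groups did not overlap over the whole gene. It lies on the minus strand at chr11:52246527-52283383 and had 66 listed positions and 43 complete sites. The controls were at 86.9%, 89.3% and 87.7% and the DM-aKG libraries at 86.6%, 86.6% and 85.7%. Each DM-aKG library was below each control, though the nearest values differed by less than 1 point. Groups that do not overlap with the treated side lower occurred in 2.53% of all genes, and with the treated side higher in 11.3%. The difference was -1.69 points (95% interval -4.24 to 0.861; limma, adjusted p = 0.766), with 26 sites lower and 13 higher. With 500 bases counted on each side in place of 1000, which leaves out the 4 sites before the start, the difference was -0.0598 points. With 1 library left out it ran from -2.24, without control replicate 1, to -1.02, without control replicate 2.

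Around the Tcf7 start the sites went both ways. At 52284032, which is 1018 bases before the nearest start, the controls read 59%, 59% and 80% and the DM-aKG libraries 54%, 51% and 47%. At 52281955, which is 640 bases after a start, the values were 88%, 87% and 100% against 86%, 75% and 67%. Both were lower in every DM-aKG library than in every control. The cluster of 13 sites from 179 to 640 bases after the start had a mean difference of -0.333 points, and that of 3 sites at 1297 to 1327 bases after it one of 5.78 points, with groups that overlapped in both. Within 1000 bases of the ends of the span, 7 complete sites had mean levels of 67.6% in the controls and 62.2% with DM-aKG, while the 36 sites of the body had 91.9% and 91.0%. The end-minus-body value differed by -4.47 points, and the groups overlapped (exact two-sided permutation test, p = 0.3, where 0.1 is the smallest p that 3 against 3 allows). With ends drawn at 2000 bases the difference was again -4.47 points and the groups did not overlap (exact permutation p = 0.1). Tcf7 was the only member with enough sites at its ends for the 1000-base comparison, and its 7 end sites all lay at the end with the starts. At 2000 bases Axin2, Notum and Ephb3 could be compared too, with differences of -0.671, -1.01 and -3.56 points. Their groups overlapped (exact permutation p = 0.9, 0.7 and 0.2).

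Neighbouring complete sites no more than 500 bases apart were also joined into clusters of at least 3, a step added after the data were seen. The members held 52 clusters, 35 lower and 17 higher with DM-aKG, against 35.1% lower and 63.9% higher of all clusters. Limma called 0 of the members' clusters and 0% of all 31129 (smallest adjusted p of a member 0.843). At an unadjusted p under 0.05 there were 2, and 5.4% of all. Groups did not overlap at 2 lower member clusters, against 2.53% of all clusters, and at 3 higher ones, against 8.7%.

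**Figure D3:**
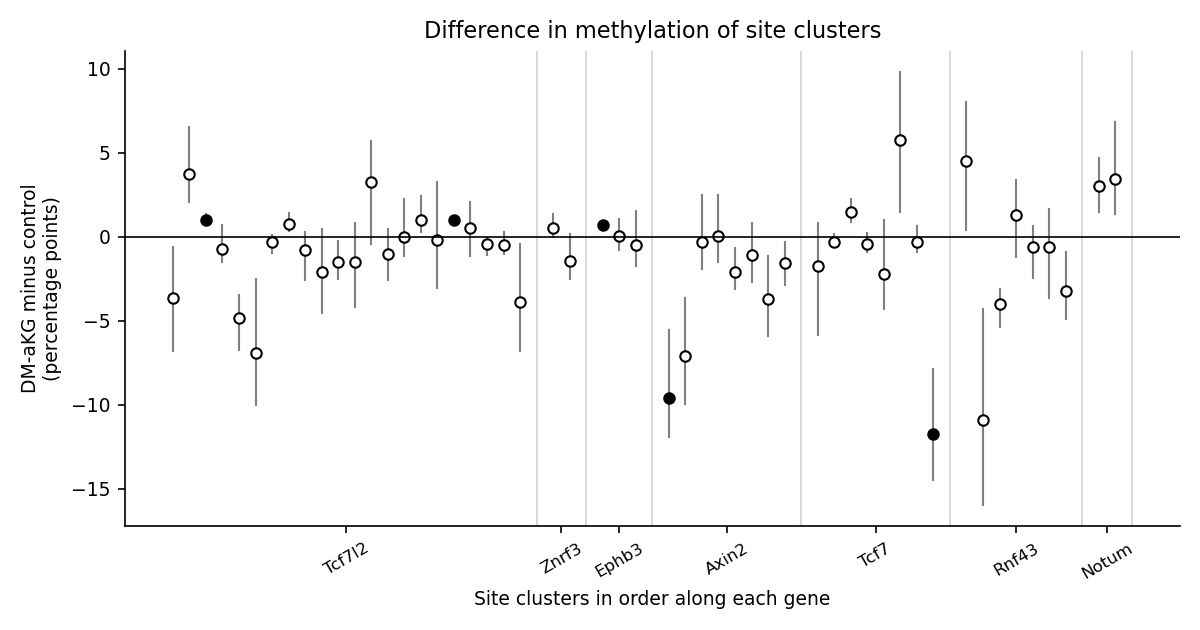
Difference in methylation (DM-aKG minus control, percentage points) of each site cluster in order along each gene. Lines span the differences with 1 library left out at a time, and filled points mark clusters whose groups do not overlap; the lowest filled points, in Axin2 and Tcf7, are at -9.61 and -11.7 points.

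The 2 lower clusters without overlap were in Axin2 and Tcf7. The Axin2 cluster, 6 sites at chr11:108934710-108934875, had 89.3%, 89.2% and 87.5% in the controls and 82.5%, 83.7% and 71.0% with DM-aKG. The Tcf7 cluster, 9 sites at chr11:52284032-52284762 before the start, of which 4 fall within the 1000 bases counted with the gene, had 72.8%, 73.6% and 74.2% against 64.0%, 67.2% and 54.1%. In both, every DM-aKG library was below every control and replicate 3 was the lowest. The differences were -9.61 and -11.7 points with limma p-values of 0.0222 and 0.0288 before adjustment and 0.843 after it. Without DM-aKG replicate 3 they were -5.58 and -7.91 points. The 3 higher clusters without overlap, 2 in Tcf7l2 and 1 in Ephb3, differed by 0.70 to 0.98 points.

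In Rnf43, 4 sites at chr11:87704997-87705081 read 94.3%, 78.0% and 71.0% in the controls and 78.5%, 67.8% and 64.3% with DM-aKG. Their groups overlapped, and the difference of -10.9 points ran from -16.0 to -4.33 when 1 library was left out. The Notum clusters, of 20 and 18 sites, were higher by 3.02 and 3.43 points. With 1 library left out these ran from 1.45 to 4.68 and from 1.32 to 6.80 points, lowest without control replicate 1 and highest without control replicate 2 in both.

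Tcf7l2, which encodes TCF4, the main TCF factor of the intestinal crypt, had the most sites and the highest level. It lies at chr19:55741797-55933659 and had 276 listed positions and 200 complete sites. The controls were at 94.4%, 93.4% and 94.4% and the DM-aKG libraries at 93.2%, 94.9% and 93.0%. DM-aKG replicate 2 was the highest of the 6, so the groups overlapped. The difference was -0.362 points (95% interval -2.81 to 2.09; limma, adjusted p = 0.922), with 90 sites lower and 82 higher.

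Sites without overlap went both ways in Tcf7l2, 5 higher and 3 lower of 200 complete sites. Over all sites 4.63% were higher and 2.5% lower without overlap. At 55896688, 1367 bases after its second start, all controls read 100% and the DM-aKG libraries 80%, 93% and 92%. At 55917494 the values were 97%, 97% and 94% against 91%, 86% and 89%. In the other direction, 55909599 read 90%, 94% and 89% in the controls and 98%, 100% and 98% with DM-aKG, and 55771334 read 93%, 94% and 96% against 100%, 97% and 100%. The genes whose 6 library values were most like those of Tcf7l2 among 6009 compared were D630003M21Rik, Itsn1 and Cers6, with Pearson correlations of 0.990, 0.983 and 0.982. These are descriptions over 6 libraries, and the points share their library.

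Ephb3, a receptor tyrosine kinase that positions cells along the crypt, had 55 listed positions and 44 complete sites at chr16:21204620-21223309. The controls were at 94.9%, 92.8% and 92.6% and the DM-aKG libraries at 93.2%, 92.4% and 93.6%. The groups overlapped, and the difference was -0.356 points (95% interval -2.94 to 2.23; limma, adjusted p = 0.916). It was 0.367 without control replicate 1. At 21204185, which is 610 bases before the start, the controls read 67%, 74% and 79% and the DM-aKG libraries 61%, 64% and 44%. At 21218233, inside the span, the values were 98%, 97% and 98% against 100% in all 3.

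Sites whose mean over the 6 libraries was under 80% are called partly methylated here. They were compared within each gene with at least 3 of them, again a step added after the data were seen. The mean includes the treated libraries, so a site that rose could leave this class and one that fell could enter it. Axin2 position 108941956, at 75.7% in the controls and 100% with DM-aKG on average, was left out in this way. Counts of lower sites in this class are thus not independent of the rule that set it. In Axin2 the 12 such sites had 74.3%, 73.5% and 70.7% in the controls and 66.6%, 70.0% and 54.3% with DM-aKG. The groups did not overlap, and 11 of the 12 sites were lower. The difference was -9.19 points (limma, adjusted p = 0.690), and -4.51 without DM-aKG replicate 3. Of the 4806 genes with such a value 63, or 1.31%, had a lower difference, the median was 2.33 points and 2.43% were lower and 11.9% higher without overlap. Limma called 1 of the 4806, or 0.0208%, and none of the members. The partly methylated sites differed by -6.67 points in Ephb3, -2.73 in Tcf7, -2.46 in Tcf7l2, -0.889 in Rnf43 and 1.61 in Notum, and in these 5 genes the groups overlapped. The mean was thus lower in 5 of 6 members and higher in 1, where 30.2% of all genes with such a value were lower and 69.4% higher. This count rests on single libraries: without control replicate 1 Rnf43 was at 1.75 and Tcf7l2 at 1.18 points, so that 3 of 6 were lower. Rnf43 was also at 0.472 points without DM-aKG replicate 3, and Notum at -1.79 without control replicate 3.

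**Figure D4:**
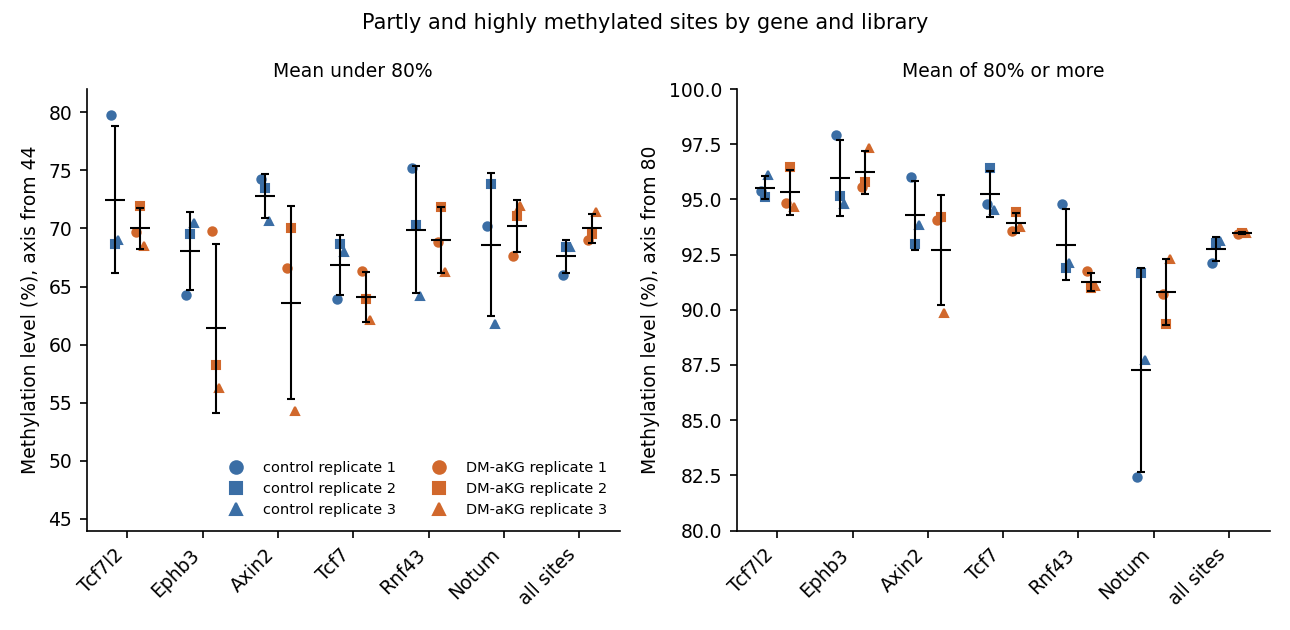
Mean methylation level (%) of partly methylated sites (left, axis from 44) and of highly methylated sites (right, axis from 80) by gene and library, with group mean and SD (n = 3), beside all complete sites. For partly methylated sites Axin2 has its DM-aKG libraries at 54.3% to 70.0%, below its controls, and all sites together are higher with DM-aKG by 2.38 points.

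At highly methylated sites 2 of the 7 members, Rnf43 and Tcf7, were lower without overlap between groups and 0 were higher without overlap. Of 8503 genes with at least 3 such sites, 2.78% were lower and 8.99% higher without overlap. In Rnf43 they were at 94.8%, 91.9% and 92.1% in the controls and at 91.7%, 91.0% and 91.1% with DM-aKG, and in Tcf7 at 94.8%, 96.4% and 94.5% against 93.6%, 94.4% and 93.8%. Every DM-aKG library was below every control in both genes, with differences of -1.69 and -1.33 points. Over all complete sites of this kind the difference was 0.698 points. This class, too, was set by a mean that includes the treated libraries.

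Other Wnt genes were counted for comparison. Of 34 further Wnt target genes 24 lie on the chromosomes that the rows used cover, and 16 had a level. Of these, 12 were higher and 4 lower with DM-aKG, and limma called 0 (median difference 1.22 points). At an unadjusted p under 0.05 there was 1 of 16, against 6.23% of all genes, and 66.3% of all genes were higher. Groups did not overlap in 4 of the 16, all higher, against 11.3% of all genes. The lowest p-values belonged to Nkd2, a Dishevelled antagonist, at 83.4% ± 2.28 and 87.7% ± 0.728 (SD, n = 3), the Wnt inhibitor gene Apcdd1 at 88.0% ± 4.73 and 93.2% ± 3.19, and the transcription factor gene Prox1 at 86.2% ± 0.52 and 88.8% ± 2.30. Of 52 pathway components 31 lie on those chromosomes, and 23 had a level. Of these, 13 were higher and 10 lower, and limma called 0, also at an unadjusted p under 0.05 (median difference 0.313 points). Apc itself was at 94.9% in the controls and 93.6% with DM-aKG, and the receptor gene Fzd3 at 91.7% and 92.7%. The chromatin remodeller gene Chd8 was at 93.4% to 96.2% in the controls and at 95.5% to 96.6% with DM-aKG.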

How the data were processed

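The 6 libraries were grouped by their titles, 3 control and 3 DM-aKG. The deposited values are percent methylation per position, rounded to whole numbers. Per the submitters' processing notes the build was mm10 and the tools CASAVA 1.8 and Novoalign 3.08.02; the caller of methylation is not given in the sources used here. No coverage column was present, so no interval from reads was given. The table holds 813850 rows, and the first 390208 were used. In later autosomal rows, control replicates 1 and 2 correlated with the other 4 libraries at -0.00432 to -0.00137, against 0.598 to 0.770 in the rows used.

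Gene levels are means over complete sites (value in all 6 libraries, at least 3). The 95% intervals of the gene differences, in points, are from a limma fit on untransformed percent. The p-values printed beside them are from the fit on log2 odds. Tests used limma 3.58.1 (R 4.3.3), for gene levels on log2 odds with an offset of 0.01 and for single sites on untransformed percent, with Benjamini-Hochberg adjustment over all features. The deposited start positions count from 1: 4341 of 4346 listed positions in promoter windows fall on a CpG. Gene spans are those of GRCm38.p6, without exons. In each gene, up to 2 sites per direction with the largest difference among those without overlap between groups were named, with any position valued in all libraries of 1 group and none of the other (positions 108942061 and 108918919 of Axin2 were added after their values were seen); of the other Wnt lists, the 3 genes with the smallest p. The members, lists and rules were chosen with earlier results of these data known. Tests were also run on simulated data, whose outcome is not given here, and alternatives are given at the end.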

Additional observations from a re-analysis of the deposited data

How the results depend on the processing

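No member gene passed the threshold under any of 16 gene-level settings (limma, smallest adjusted p 0.540). Over all genes, limma called 1 with untransformed percent, 1 with an offset of 0.05, 1 with at least 1 site a gene, 1 with every valued position and 7 with a 0 counted as a level of 0. Over all sites it called 407 on log2 odds, 2379 with a 0 as a level and 0 to 9 when 1 library was left out. Among the 2379 was 1 member site, 87719778 of Rnf43 (limma, adjusted p = 0.00138). Its DM-aKG values were all listed at 0, so this p-value rests on counting as a level what may be no call. The next listed positions, 87719795 and 87719802, were at 0 in all DM-aKG libraries and in control replicate 1, and at 100% in the other controls. Whether reads were absent at these positions was not tested. Clusters gave 1 with untransformed percent, and partly methylated sites 0 to 1 when 1 library was left out.

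The direction of 4 members turned: with 1 library left out Rnf43 ran from -2.65 to 0.0943 points and Ephb3 from -0.780 to 0.367, both highest without control replicate 1, and Znrf3 from -0.231, without DM-aKG replicate 1, to 0.385. Znrf3 turned to -0.922 with library means equalised and Tcf7l2 to 0.0519 with every valued position. Axin2, Notum and Tcf7 kept their direction under the 16 settings, and with 1 library left out they ran from -3.69 to -0.737, from 1.47 to 5.30 and from -2.24 to -1.02 points. The Tcf7 end-minus-body difference ran from -7.15 to -2.26 points when 1 library was left out and was -15.3 with a 0 as a level. That setting also moved the gene differences of Rnf43 to -11.5, Tcf7l2 to -5.41, Axin2 to -5.00, Tcf7 to -4.67, Ephb3 to -0.794, Notum to 3.07 and Znrf3 to 2.19 points. The causes were not tested.

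Replicate numbers showed no clear pairing of the libraries. The levels of same-numbered libraries correlated at 0.649, 0.770 and 0.686, and those of different-numbered control and DM-aKG libraries at 0.598 to 0.751. The pairing check used another measure than the levels themselves. It gave correlations of 0.0652, -0.0276 and 0.0306 for the same-numbered pairs and of -0.0871 to 0.0903 for the others. With the replicate block limma called 0 genes, 0 sites, 0 clusters and 1 gene by its partly methylated sites, and it changed no call of a member. Without coverage, a low level cannot be told from a poorly read one, and positions under 40% are outside these results.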
